A study of Mus musculus with 18 samples.

Results

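Keratins are the intermediate filament proteins of epithelia, and the 54 keratin genes of the mouse colon data were described across sorted epithelial cells and crypts. They were all the genes of both deposited tables whose symbol is Krt followed by a number and at most 1 letter, 54 of 52636 genes in each table, and the same 54 in both. By their usual tissues, 6 were classed as simple keratins, 21 as squamous keratins and 24 as keratins of hair and its inner root sheath, and 3 (*Krt80*, *Krt222* and *Krt88*) were put in none of these classes. RNA was sequenced from 18 libraries, 6 of sorted cells and 12 of crypts. The sorted cells came from mice of the Olfr78-GFP line aged 4 to 7 months according to the methods, in which a GFP cassette replaces the coding exon of *Olfr78*, a receptor for short-chain fatty acids. Of these, 2 samples titled Epcam+ve/GFP-ve came from 1 wild-type (WT) mouse and are called Epcam+ve cells. Sorted GFP+ve cells, also Epcam+ve, made up 2 pools of heterozygous (HE) and 2 of homozygous (KO) mice, with 2 mice in each pool. GFP marks cells in which the locus is active, and homozygous cells lack the receptor. Crypts came from 2 WT and 5 KO mice of the same line, and from 3 eControl and 2 eKO mice of a line in which Cre under the villin promoter acts on a floxed *Olfr78* allele in epithelial cells. The paper describes the controls of that line as mice without Cre or mice without the floxed allele. One eKO mouse (number 2) carries the genotype label WT/HO, the same as eControl mouse 2, and was grouped by its title. Whether it lacks the receptor cannot be told from that label. The ages of the mice of the crypt libraries were not given in the sources used here.

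A keratin filament is built from pairs of a type I and a type II chain. *Krt8* (type II) with *Krt18*, *Krt19* and *Krt20* (type I) form the filaments of simple, one-layered epithelia such as that of the colon, and *Krt7* is a type II keratin of ducts and of other simple epithelia. *Krt5* and *Krt14* are the pair of the basal layer of squamous epithelium. *Krt6a*, *Krt16* and *Krt17* are found in hair follicles and in stressed or healing epidermis, and *Krt4* and *Krt13* mark the layers above the basal one in squamous mucosa. Of the 54 genes, 28 encode type I and 26 type II chains, and 27 lie on chromosome 11 and 27 on chromosome 15 of GRCm38. *Krt18* is the type I gene that lies in the type II cluster on chromosome 15, next to *Krt8*.

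The sequences before the transcription start are shown for 3 keratins whose levels are compared below, *Krt20* and *Krt7*, which were higher in HE pools, and *Krt5*, which was at its highest in Epcam+ve cells. They are the 250 bases before the start in RefSeq (GRCm38.p6), 5′ to 3′ on the strand of the gene. Capitals mark the letters ATAAAAG or, overlapping with them, TATAAA, on either strand. The search for ATAAAAG was added after these windows had been read.
*Krt20*, chr11:99438154-99438403, minus strand: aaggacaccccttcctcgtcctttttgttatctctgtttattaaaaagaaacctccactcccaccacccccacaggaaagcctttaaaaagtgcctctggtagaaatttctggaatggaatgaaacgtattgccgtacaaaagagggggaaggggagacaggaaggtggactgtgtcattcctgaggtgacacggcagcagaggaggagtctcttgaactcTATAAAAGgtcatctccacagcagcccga
*Krt7*, chr15:101412153-101412402, plus strand: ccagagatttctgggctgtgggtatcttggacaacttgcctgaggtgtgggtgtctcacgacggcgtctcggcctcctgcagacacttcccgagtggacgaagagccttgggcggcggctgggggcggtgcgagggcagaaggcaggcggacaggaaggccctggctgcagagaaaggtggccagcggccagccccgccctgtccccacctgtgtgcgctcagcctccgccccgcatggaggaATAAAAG
*Krt5*, chr15:101712906-101713155, minus strand: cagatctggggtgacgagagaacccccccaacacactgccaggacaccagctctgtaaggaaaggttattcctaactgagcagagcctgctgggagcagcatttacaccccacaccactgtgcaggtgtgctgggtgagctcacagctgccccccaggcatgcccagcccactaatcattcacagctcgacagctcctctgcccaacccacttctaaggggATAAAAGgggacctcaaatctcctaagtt

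*Krt20*, *Krt7* and *Krt5* each hold 1 copy of ATAAAAG, which starts 28 bases before the start in *Krt20*, 7 bases before it in *Krt7* and 29 bases before it in *Krt5*. The *Krt7* window ends where its main coding transcript begins, and overlaps a noncoding *Krt7* transcript and an antisense gene (*Gm671*) in GENCODE vM21. Of all 32851 windows of the same length in the RefSeq table, 4.83% hold ATAAAAG and 12.4% hold TATAAA, against 12 and 17 of the 36 keratins with a window. TGANTCA, the letters of AP-1 sites, was found in 1 of the 36 keratin windows and in 6.75% of all windows, and CAGATG, an E-box of the kind bound by Neurod1, in 7 of the 36 and in 14.4% of all. The search covered both strands, and a match is a description of letters only.

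Levels are given in CP20M, the reads of a gene scaled to 20000000 reads per library, as deposited. Whole reads could be recovered from the values, and 1 read was worth 8.94 to 13.3 CP20M in 5 of the sorted libraries, 37.5 CP20M in KO pool 1, which held 532704 reads on genes, and 1.82 to 3.24 CP20M in the crypts. *Epcam* and *Cdh1*, markers of epithelium, had at least 7021 CP20M in all 18 libraries, and *Chga*, a marker of enteroendocrine cells, had 107136 to 304540 CP20M in the 4 pools, against 3504 and 3380 for both Epcam+ve samples and 1727 to 3896 among crypts. The labels call all 6 sorted libraries enteroendocrine, which this marker does not bear out for the Epcam+ve cells. *Olfr78* had 4822 and 4401 CP20M among HE pools, 977 and 837 among KO pools, 88 and 111 for WT crypts, 7 to 42 for KO crypts, 61 to 124 for eControl and 21 and 73 for eKO crypts, and the sources used here do not say how counts were split over its exons. Of the eKO crypts, the higher *Olfr78* value lay within the range of the eControl crypts. In bulk libraries such as these, fewer cells of a type and less RNA per cell cannot be told apart. KO pool 1 stands apart by its depth and eControl mouse 2 by its squamous keratins, and results that rest on them are given with and without them. Medians over all genes shifted by more than 0.1 (log2) with median-of-ratios rescaling, from -0.26 to -0.12 in KO pools against Epcam+ve cells, from -0.18 to -0.02 in KO against HE pools and from -0.26 to -0.07 in Epcam+ve cells against WT crypts. No label names batches, and p-values measure the spread between these libraries, of which both Epcam+ve samples are of 1 mouse.

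The keratin signal was nearly all of the simple class in each library. The 6 simple keratins made up 94.5% and 95.1% of the summed CP20M of the 54 keratins in the Epcam+ve cells, 97.0% and 96.7% in HE pools, 96.1% and 97.8% in KO pools and 98.8% to 99.7% in the crypts. All 54 keratins together took between 0.250% and 0.521% of a library. At least 40 CP20M was reached in all 18 libraries by 5 keratins, *Krt7*, *Krt8*, *Krt18*, *Krt19* and *Krt20*, while 27 of the 54 stayed under 40 CP20M in every library, with a highest value of 38, and 1 was at 0 in all. Per kilobase of the longest coding transcript, the order of the mean levels in WT crypts was *Krt8* (17111 ± 576 CP20M per kb, SD, n = 2), *Krt19* (14776 ± 571), *Krt20* (4641 ± 80.4), *Krt18* (3978 ± 129) and *Krt7* (516 ± 49.1), with no overlap between neighbours. In the Epcam+ve cells *Krt8* (11173 ± 895) and *Krt19* (10132 ± 1064) overlapped at the head of the order, and *Krt18* (4324 ± 68.9) lay above *Krt20* (2142 ± 225). In the HE pools the order per kilobase changed, with *Krt20* (14593 ± 2380) and *Krt19* (13149 ± 383), whose libraries overlapped, ahead of *Krt8* (11783 ± 848).

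**Figure D1:**
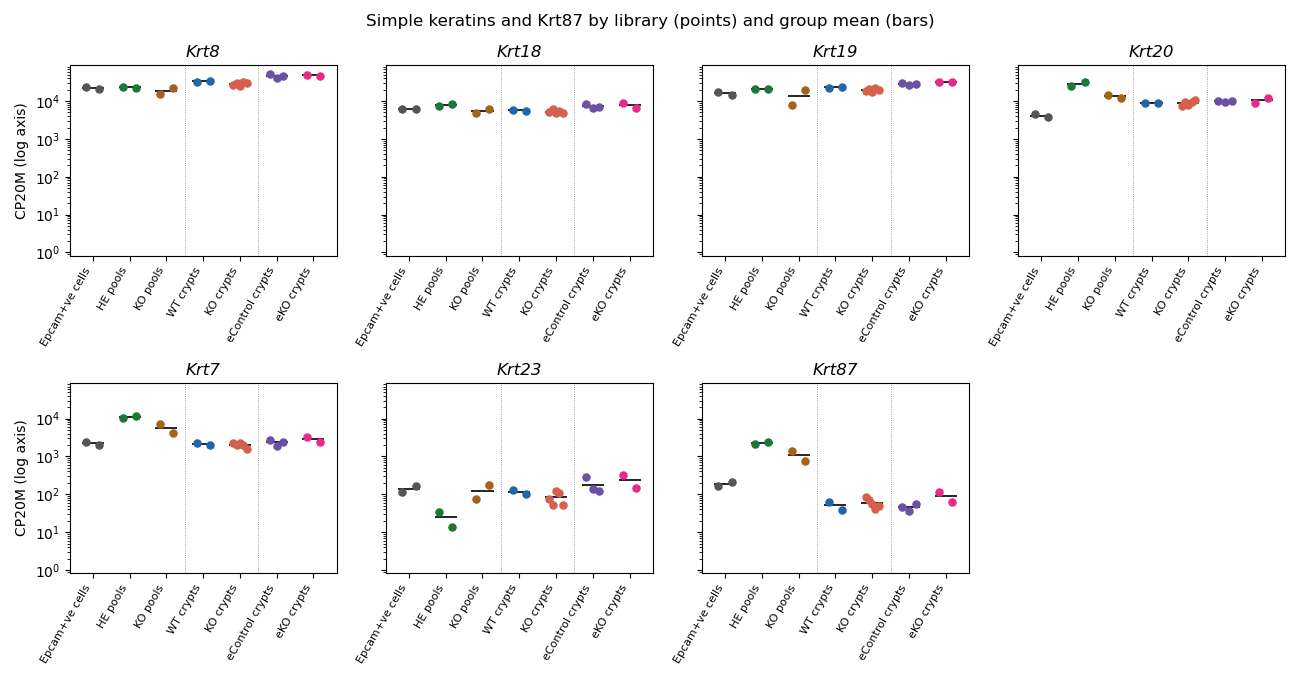
Level in each library (points, CP20M on a log axis) and group mean (bars) of the 6 simple keratins and *Krt87*; dotted lines part sorted cells, crypts of the Olfr78-GFP line and crypts of the Vil1-Cre line. *Krt8*, *Krt18* and *Krt19* stay within about 1 decade in all groups, and *Krt20*, *Krt7* and *Krt87* are highest in HE pools.

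The first comparison set GFP+ve cells of HE mice, which use the *Olfr78* locus, against the Epcam+ve cells of 1 WT mouse. Genotype and mice differ between these groups along with the cells and cannot be told apart from them. *Krt20*, *Krt7* and *Krt87* were higher in HE pools and *Krt14* was lower, at FDR under 0.001 with a log2 fold change (log2FC) beyond 2 either way. FDR is the Benjamini-Hochberg adjusted p of limma on log2(CP20M + 10), here over 16355 genes tested, and SE the standard error of a log2FC. Of the 54 keratins, 19 passed the filter of 40 CP20M in 2 of the 4 libraries; 3 were called higher, where 1.58% of all genes tested were, and 1 lower, where 0.171% were. The squamous keratins that passed did so through the Epcam+ve cells in most cases, so that their count is no share of the class.

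*Krt20*, the keratin of mature surface cells of the colon, had 4434 and 3822 CP20M in the Epcam+ve cells and 24878 and 31364 in HE pools. Both pools lay far above both samples, with a ratio of the means of 6.81 and a log2FC of 2.76 (SE 0.19, FDR = 6.2e-05). *Krt7* had 2423 and 1993 CP20M in the Epcam+ve cells and 10368 and 11855 in HE pools, a ratio of 5.03 and a log2FC of 2.33 (SE 0.18, FDR = 1.3e-04). The other large simple keratins stood at nearly the same level in both groups. *Krt8* had 23116 and 20639 CP20M in the Epcam+ve cells and 24245 and 21896 among HE pools, with overlap (log2FC 0.08, SE 0.18, FDR = 0.79). *Krt18* had 6284 and 6144 against 7560 and 8201 CP20M (log2FC 0.34, SE 0.16), and *Krt19* had 17154 and 14783 against 21150 and 20296 CP20M (0.38, SE 0.18), neither past the thresholds (FDR = 0.17 and 0.16). *Krt23*, a low simple keratin, had 117 and 165 CP20M in the Epcam+ve cells against 35 and 14 for HE, from 13, 16, 3 and 1 reads, and did not pass (log2FC -2.18, SE 0.64, FDR = 0.039).

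With *Krt20* and *Krt7* higher and *Krt8* level, the make-up of the keratins differed. The ratio of *Krt20* to *Krt19* was 0.258 and 0.259 in the Epcam+ve cells, 1.18 and 1.55 in HE pools, 1.92 and 0.610 in KO pools and 0.278 to 0.543 in the crypts. The ratio of *Krt7* to *Krt8* was 0.105 and 0.0966 in the Epcam+ve cells, 0.428 and 0.541 in HE pools, 0.458 and 0.189 in KO pools and 0.0462 to 0.0923 in the crypts. Type I summed over type II, per kilobase of transcript, came to 1.42 and 1.44 in the Epcam+ve cells, 1.99 and 2.31 in HE pools, 1.52 and 1.80 in KO pools, 1.32 to 1.46 in the crypts of the Olfr78-GFP line and 1.12 to 1.24 in those of the other line. These sums over the members were not tested.

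*Krt87*, a type II keratin classed with those of hair, had 170 and 206 CP20M in the Epcam+ve cells, from 19 and 20 reads, and 2095 and 2334 in HE pools, from 182 and 175 reads. The ratio of the means was 11.8 and the log2FC 3.49 (SE 0.26, FDR = 1.0e-04). The gene lies on the minus strand of chromosome 15 (101431038 to 101438804), tail to tail with *Krt7* on the plus strand (101411043 to 101430313), with 724 bases between the annotated ends. Its level was 7.02% and 10.3% of that of *Krt7* in the Epcam+ve cells, 20.2% and 19.7% in HE pools, 19.7% and 18.3% in KO pools and 1.65% to 3.67% in the crypts, so that the proportion between these neighbours was not constant. Whether the authors' counting used the strand is not given in the sources used here, and the part of reads that run past the end of *Krt7* was not tested. The keratins farther along the cluster were low. *Krt83* had 18 and 0 CP20M in the Epcam+ve cells and 58 and 67 in HE pools (FDR = 0.075), from at most 5 reads a library, *Krt84* had 18 and 31 against 47 and 41 CP20M (FDR = 0.50), and the means of *Krt88*, *Krt81* and *Krt86* were at most 42 CP20M in the Epcam+ve cells, HE pools, KO pools and WT crypts.

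**Figure D2:**
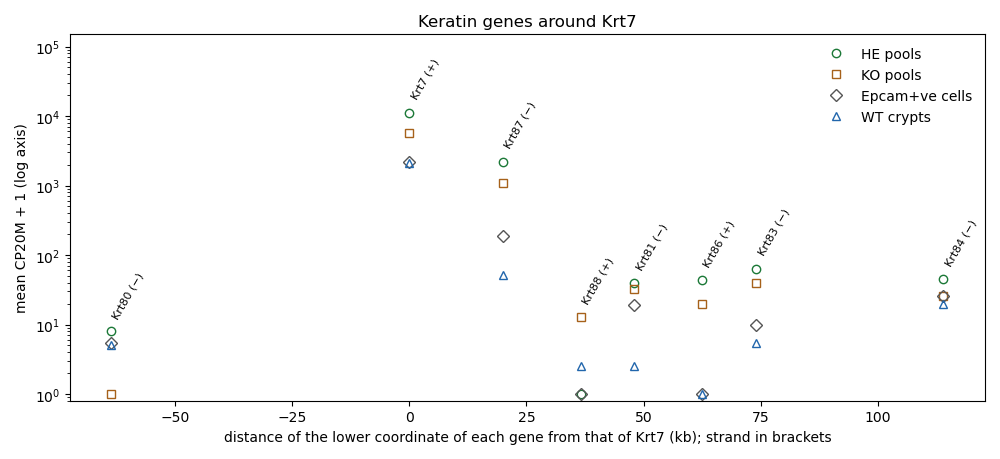
Mean level (CP20M + 1, log axis) in 4 groups of the keratin genes within 130 kb of *Krt7*, by distance from *Krt7* in kb, with the strand in brackets. *Krt7* and its neighbour *Krt87* are the genes above 100 CP20M, and both are highest in HE pools and next in KO pools.

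*Krt14* was the squamous keratin called lower. It had 662 and 668 CP20M in the Epcam+ve cells, from 74 and 65 reads, and 35 and 27 in HE pools, from 3 and 2 reads. It was 21.5 times as high per read in the Epcam+ve cells (95% exact counting interval 9.0 to 67.3, which covers counting error only), and its log2FC in HE pools was -4.05 (SE 0.46, FDR = 8.7e-04). *Krt5*, its partner, had 760 and 463 CP20M in the Epcam+ve cells, from 85 and 45 reads, and 0 and 27 in HE pools, from 0 and 2 reads. The ratio per read was 50.3 (95% counting interval 13.6 to 420), and the log2FC of -4.97 (SE 0.72) had FDR = 0.0026, over the threshold. EdgeR (quasi-likelihood test, recovered reads) called both *Krt14* and *Krt5* lower, where it called 1.05% of all genes lower. *Krt17* had 367 and 165 against 35 and 27 CP20M (log2FC -2.65, SE 0.60, FDR = 0.016), and *Krt6a* had 242 and 144 against 12 and 0 CP20M (-3.73, SE 0.70, FDR = 0.0072). Neither passed the threshold of 0.001. Both genes met the filter through the Epcam+ve cells alone, so that the lack of overlap with the HE pools adds nothing to the test. With either Epcam+ve sample left out *Krt14* and *Krt5* missed the filter and could not be tested, and without HE pool 1 *Krt5*, *Krt17* and *Krt6a* were called lower as well as *Krt14*, among 767 of 15111 genes lower.

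The other squamous keratins tested did not pass either, and lay at a few reads. *Krt13*, *Krt15* and *Krt16* had 42 to 72 CP20M in the Epcam+ve cells and 12 to 41 in HE pools, with log2FC values of -0.36, -1.14 and -1.44 (SE 0.63, 0.66 and 0.65). *Krt10*, a keratin of the upper epidermis, had 108 and 114 against 35 and 214 CP20M, and *Krt12*, the keratin of the cornea, 144 and 62 against 12 and 174 CP20M, and in both the HE pools lay on either side of the Epcam+ve samples. *Krt222*, a short keratin-like gene in none of the 3 classes, had 81 and 72 CP20M in the Epcam+ve cells and 12 and 0 in HE pools (log2FC -2.54, SE 0.71, FDR = 0.034), from at most 9 reads a library. Over the 6 simple keratins the median log2FC was 0.36, and over all genes it was -0.05. With a pseudocount of 1 in place of 10, 0 of the 19 keratins were called, and of all genes 77 against 287; without a trend of the spread with level, 0 keratins and 0 genes were called.

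**Figure D3:**
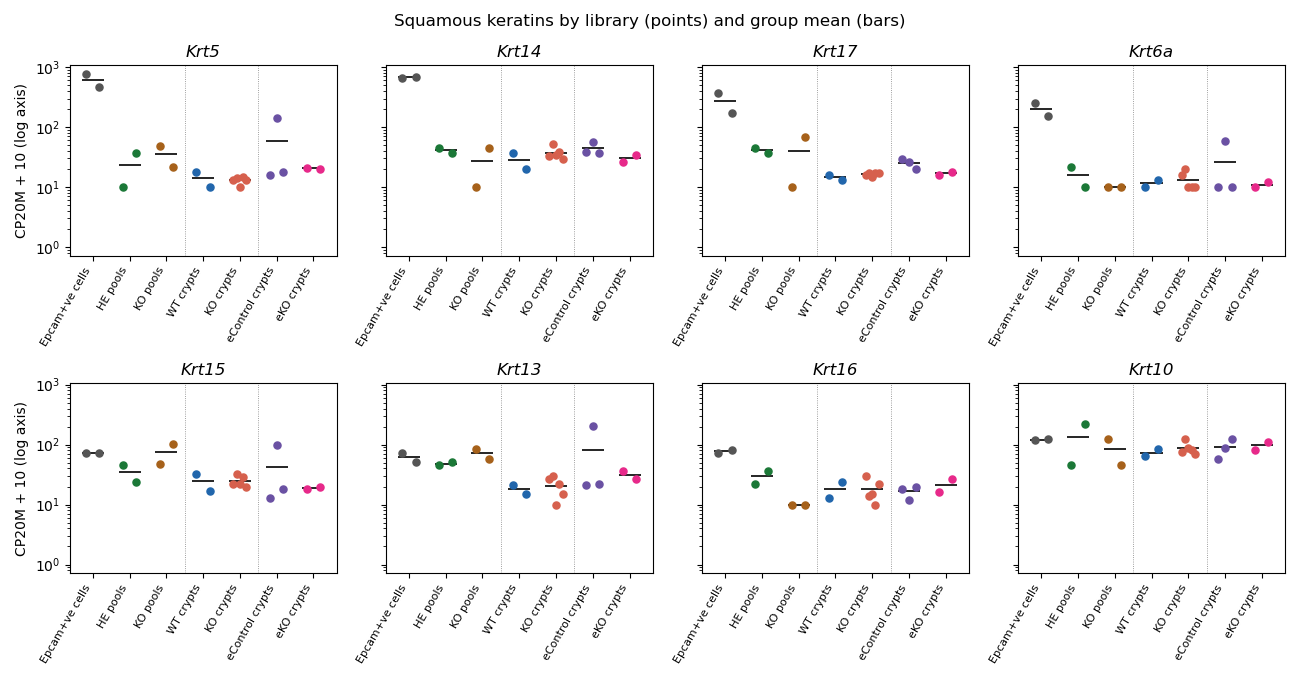
Level in each library (points, CP20M + 10 on a log axis) and group mean (bars) of 8 squamous keratins. *Krt5*, *Krt14*, *Krt17* and *Krt6a* are highest in the 2 Epcam+ve samples, and 1 eControl library stands above the other crypts in *Krt5*, *Krt6a*, *Krt13* and *Krt15*.

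KO pools were set against the same 2 Epcam+ve samples, so the values below share controls with those above. Genotype and mice again differ along with the cells. Here limma called 0 of 15779 genes (0%), with 2925 at an unadjusted p under 0.05; edgeR called 31 and DESeq2 239. No keratin of the 19 tested was called by limma, and 1, *Krt87*, by DESeq2. *Krt20* had 14755 and 11876 CP20M in KO pools, 3.23 times the mean of the Epcam+ve cells (log2FC 1.68, SE 0.28, FDR = 0.065). *Krt7* had 7247 and 4195 CP20M, 2.59 times that mean (1.32, SE 0.34, FDR = 0.17), and *Krt87* 1427 and 767 CP20M, 5.84 times it (2.42, SE 0.43, FDR = 0.077). Both KO pools lay above both Epcam+ve samples in these 3 genes, and the share of all genes so parted was not counted. *Krt14* had 0 and 35 CP20M and *Krt5* 38 and 12, from 3 and 2 reads in all, with log2FC values of -4.99 and -4.22 (SE 0.84 and 0.66, FDR = 0.069 and 0.058). *Krt17* had 0 and 59 CP20M. *Krt6a* was at 0 in both KO pools, against 41 reads in the Epcam+ve cells, and the exact 95% lower limit of the ratio per read was 5.72. *Krt12*, with 0 and 12 CP20M, and *Krt16*, at 0 in both, were also low, while *Krt13* had 76 and 47 CP20M and *Krt15* 38 and 93, and both overlapped with the Epcam+ve cells. *Krt36* and *Krt78* had 0 and 59 and 0 and 47 CP20M against 18 and 83 and 54 and 21 in the Epcam+ve cells. In KO pool 1 a single read, 37.5 CP20M, nearly reached the filter, and *Krt13*, *Krt5* and *Krt15* rested there on 1 or 2 reads. Without that pool *Krt14*, *Krt5* and *Krt6a* were called lower by the same rule, among 105 genes lower and 105 higher of 14913 tested. Without KO pool 2 *Krt87* was called higher and 5 squamous keratins lower, among 331 genes higher and 1422 lower of 14734 tested.

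**Figure D4:**
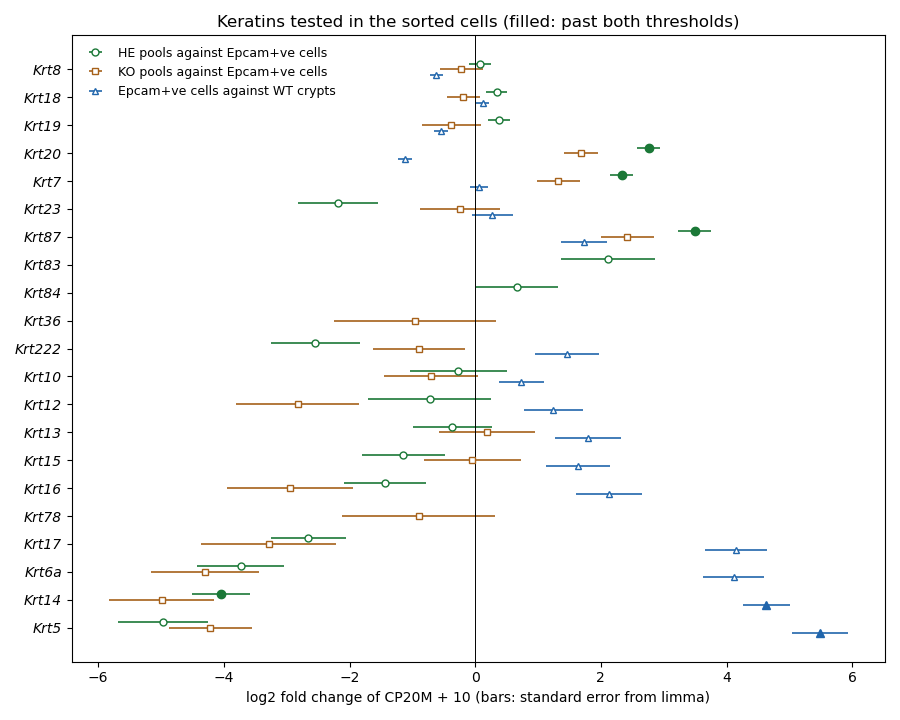
Log2 fold change of CP20M + 10 (points) with its SE from limma (bars) for the keratins tested in HE pools against Epcam+ve cells, KO pools against Epcam+ve cells and Epcam+ve cells against WT crypts; filled points passed both thresholds. *Krt20*, *Krt7* and *Krt87* lie to the right in the pools, and *Krt14* and *Krt5* lie to the left there and to the right in Epcam+ve cells against crypts, a comparison that shares the Epcam+ve samples.

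Loss of *Olfr78* in the sorted cells was addressed by KO pools against HE pools. Genes above 40 CP20M in all 4 pools were tested, 11892 in number, and 6 of them were keratins, *Krt7*, *Krt8*, *Krt18*, *Krt19*, *Krt20* and *Krt87*. Limma called 0 genes (0%) at FDR under 0.05, with 503 at an unadjusted p under 0.05, and edgeR called 0 and DESeq2 8 genes. By the criterion of the methods, a difference of the means beyond 2 times the average SD and a ratio beyond 1.5-fold, *Krt20*, *Krt7* and *Krt87* were lower in KO pools, where 9.98% of all genes tested were lower. This criterion split all genes into 384 higher and 1187 lower, and into 655 and 633 after median-of-ratios rescaling, under which the same 3 keratins still met it. *Krt20* had 24878 and 31364 CP20M in HE pools and 14755 and 11876 in KO pools, a log2 ratio of the means of -1.08. *Krt7* had 10368 and 11855 against 7247 and 4195 CP20M (-0.96), and *Krt87* 2095 and 2334 against 1427 and 767 CP20M (-1.01). In all 3 genes both KO pools lay below both HE pools, which the criterion itself requires with 2 libraries a group. The limma fold changes of these genes were -1.08, -1.01 and -1.07 (SE 0.32, 0.34 and 0.37) at FDR = 0.93 each. *Krt8* (24245 and 21896 against 15807 and 22241 CP20M) overlapped between the groups, and *Krt18* (7560 and 8201 against 4881 and 6078) and *Krt19* (21150 and 20296 against 7697 and 19464) had log2 ratios of -0.52 and -0.61 and did not meet the criterion. Of these 6 genes the KO pools differed from each other most in *Krt19*, where the shallow pool 1 had 7697 CP20M. *Krt23*, the sixth simple keratin, did not reach the filter, with 35 and 14 CP20M in HE pools against 76 and 175 in KO pools, from 3, 1, 2 and 15 reads; with a filter of 40 CP20M in 2 pools it met the criterion as higher in KO pools. By the limma rule, *Krt20*, *Krt7* and *Krt87* were called lower when KO pool 1 was left out, among 253 genes lower of 13326 tested, and *Krt19* was the 1 keratin called when KO pool 2 was, among 91 lower of 12288. The criterion was met by *Krt18* and *Krt19* too without KO pool 2. *Chga*, the enteroendocrine marker, was lower in KO pools by the same criterion, with a log2 ratio of -0.99, and the part of this in the keratin values was not tested.

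The Epcam+ve cells were then compared with WT crypts, the whole epithelium from which such cells are sorted. *Krt14* and *Krt5* were called higher in the Epcam+ve cells by the first rule, 2 of the 17 keratins tested, where 0.557% of the 15434 genes tested were called higher and 0.194% lower. *Krt14* had 662 and 668 CP20M in the Epcam+ve cells and 27 and 10 in the WT crypts, from 10 and 4 reads, a ratio per read of 38.8 (95% counting interval 22.4 to 72.8) and a log2FC of 4.63 (SE 0.37, FDR = 2.9e-04). *Krt5* had 760 and 463 against 8 and 0 CP20M, from 3 and 0 reads, a ratio per read of 169 (counting interval 56.7 to 832) and a log2FC of 5.49 (SE 0.44, FDR = 2.9e-04). *Krt17* (6 and 3 CP20M in the crypts) and *Krt6a* (0 and 3) came close to the threshold, with log2FC values of 4.15 and 4.11 (SE 0.49 and 0.48) and FDR = 0.0014 and 0.0013. EdgeR on the recovered reads called *Krt14*, *Krt5*, *Krt17* and *Krt6a* higher, where it called 1.9% of all genes higher. A pseudocount of 1, no filter and no trend of the spread each called 0 keratins, among 80, 0 and 0 genes in all. Beside *Krt17* and *Krt6a*, 5 more squamous keratins were tested and did not pass, *Krt16* (log2FC 2.13), *Krt13* (1.80), *Krt15* (1.64), *Krt12* (1.24) and *Krt10* (0.73). The calls rest on both Epcam+ve samples, since the filter asks for 2 libraries and the gene is near 0 in the crypts; with either left out *Krt14* and *Krt5* could not be tested, and 0 keratins were called.

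The simple keratins did not pass in that comparison. *Krt20* was at 4434 and 3822 CP20M in the Epcam+ve cells and at 9052 and 8833 in the WT crypts, a log2FC of -1.12 (SE 0.11, FDR = 7.8e-04), short of the fold required. *Krt8* (23116 and 20639 against 32706 and 34301 CP20M) and *Krt19* (17154 and 14783 against 22651 and 23923) had log2FC values of -0.62 and -0.55 (SE 0.11 and 0.11, FDR = 0.0071 and 0.012). *Krt7* (2423 and 1993 against 2256 and 1972) overlapped between the groups, *Krt18* (6284 and 6144 against 5848 and 5586) had a log2FC of 0.12, and *Krt23* (117 and 165 against 126 and 102) overlapped too. *Krt87*, at 170 and 206 CP20M in the Epcam+ve cells and 62 and 39 in the crypts, had a log2FC of 1.73 (SE 0.36, FDR = 0.012). Sorting, RNA kit, depth and mice differ between these groups along with the cells and cannot be told apart from them. Both Epcam+ve samples are of 1 mouse, and the WT crypts are of 2.

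In shares, squamous keratins made up 4.78% (95% exact interval of the reads 4.26 to 5.32) and 3.90% (3.36 to 4.47) of the keratin signal in the Epcam+ve cells. In the HE pools they made up 0.285% (0.175 to 0.421) and 0.669% (0.488 to 0.875), and in KO pools 0.649% (0.295 to 1.22) and 0.665% (0.463 to 0.905). The share was 0.278% and 0.243% in WT and 0.334% to 0.474% in KO crypts, in eControl crypts 0.174%, 0.922% and 0.292%, and in eKO crypts 0.191% and 0.242%. The 2 Epcam+ve samples thus stood above all other libraries, and eControl mouse 2 above the other crypts. Per kilobase of transcript the means were 4.10% in the Epcam+ve cells, 0.477% in HE pools and 0.236% in the WT crypts. Keratins of hair and its root sheath made up 2.69% and 2.65% in HE pools, 3.22% and 1.41% in KO pools and at most 0.832% elsewhere, and *Krt87* held 2095 of 2447 and 2334 of 2567 CP20M of this class in HE pools.

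**Figure D5:**
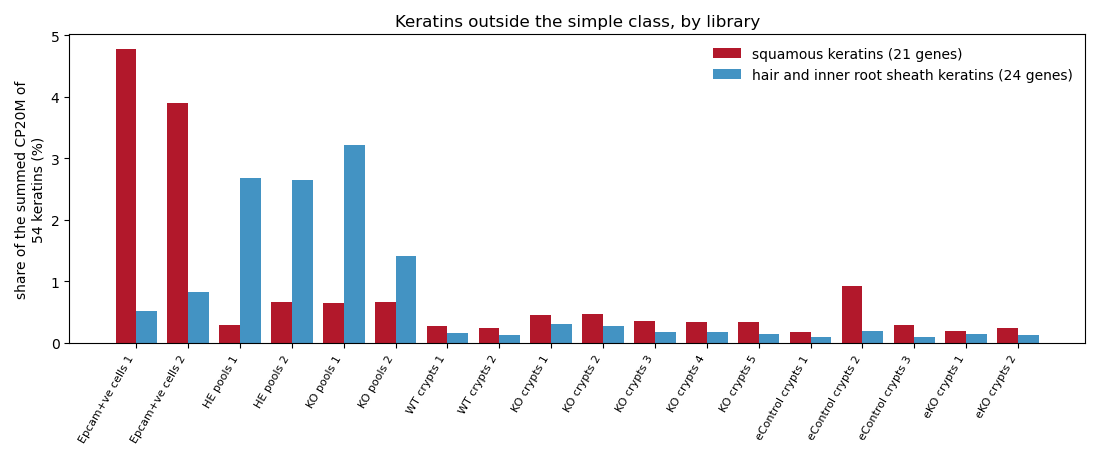
Share of the summed CP20M of 54 keratins (%) taken by the 21 squamous keratins (red) and the 24 keratins of hair and its inner root sheath (blue) in each of the 18 libraries. The squamous share is 4.78% and 3.90% in the Epcam+ve samples and under 1% in the other libraries, and the hair share is above 1% in the 4 pools of GFP+ve cells.

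*Trp63*, the transcription factor of squamous basal cells, had 81 and 42 CP20M in the Epcam+ve cells, from 9 and 4 reads, 0 in all 4 pools of GFP+ve cells and 0 to 10 in the crypts. Of 20 such genes outside the keratin family, *Trp63* among them, 7 were tested in Epcam+ve cells against WT crypts and 0 were called. Of these 7, 4 had a positive log2FC. At an unadjusted p under 0.05 (limma) were 6 of the 7, and 5933 of all 15434 genes tested. The summed level of the 20 genes was 2296 to 2965 CP20M in the Epcam+ve cells, 952 to 1111 in HE pools, 453 to 1561 in KO pools and 3355 to 3470 in the WT crypts. In HE pools against Epcam+ve cells 8 were tested and 0 called, with 2 at a positive log2FC. There 5 of the 8 had an unadjusted p under 0.05 (limma), as had 6086 of all 16355 genes tested. Most of these sums came from *Sfn* (1297 and 874 CP20M in the Epcam+ve cells, 1763 and 1716 in WT crypts) and *Serpinb5* (778 and 833, then 1146 and 1277), which the crypts also expressed. The cornified-layer genes *Flg* and *Ivl* were at 0 in all 6 sorted libraries, and *Lor* had 18 and 0 CP20M in the Epcam+ve cells, 24 and 41 in HE pools and 0 in both KO pools. *Lgals7*, *Lypd3*, *Krtdap* and *Ly6d* were low genes, with 81 and 72, 54 and 72, 27 and 62, and 81 and 21 CP20M in the Epcam+ve cells. In WT crypts they had 0 and 0, 6 and 0, 3 and 0, and 8 and 0 CP20M. In the 4 pools they were at 0, save for 12 CP20M of *Lypd3* in HE pool 1. *Anxa8* went the other way, with 117 and 21 CP20M in the Epcam+ve cells and 160 and 157 in WT crypts. Against the HE pools, *Dmkn* (27 and 83 CP20M in the Epcam+ve cells, 127 and 94 in HE pools) and *Sbsn* (0 and 0, then 47 and 14) also went the other way. Apart from *Trp63*, the genes named here were chosen after their values were seen. The part of squamous cells in the keratin values was not tested.

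The partners of keratins at the cell surface were set beside them. Of all genes tested in HE pools against Epcam+ve cells, 1.58% were called higher and 0.171% lower. By the criterion of the methods, 384 of 11892 genes were higher in KO than in HE pools, and 1187 (9.98%) were lower. Whether the short lists below differ from these shares was not tested. Envoplakin (*Evpl*), a plakin that links keratins to desmosomes, had 430 and 401 CP20M in the Epcam+ve cells and 3533 and 2827 in HE pools, the 1 called gene of 9 tested from a list of 10 hemidesmosome and plakin genes (log2FC 2.90, SE 0.22, FDR = 1.2e-04). In the KO pools it had 1577 and 1546 CP20M, lower than in HE pools by the criterion of the methods, as was *Dst*, a plakin of hemidesmosomes, with 20356 and 17749 CP20M in HE pools and 13216 and 11411 in KO pools. Of 9 desmosome genes tested in HE pools against Epcam+ve cells, 0 were called and 8 had a negative log2FC, with a median of -0.97. In KO against HE pools 8 desmosome genes were tested and 2 met the criterion, *Pkp1*, higher in KO pools (338 and 454 CP20M, with 231 and 67 in HE pools), and *Pkp4*, lower in KO pools (789 and 1058, with 1634 and 1481 in HE pools). Of the intermediate filaments that are not keratins, 8 were tested in HE pools against Epcam+ve cells and 2 were higher. Neurofilament medium chain (*Nefm*) went from 36 and 31 to 2026 and 2321 CP20M (log2FC 5.65, SE 0.35, FDR = 4.0e-05), and vimentin (*Vim*) from 242 and 206 to 2682 and 3481 CP20M (3.72, SE 0.25, FDR = 6.2e-05). In the KO pools *Nefm* had 1127 and 988 CP20M and *Vim* 3117 and 1360, and of 6 such genes tested against HE pools 2, *Nefm* and *Nefh*, were lower by the criterion.

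Markers of other cells differed between these groups. The summed level of 8 enteroendocrine genes was 13215 to 13347 CP20M in the Epcam+ve cells, 855908 to 1109179 in HE pools and 358768 to 603191 in KO pools, and that of 10 genes of colon epithelium 336074 to 398406, 95270 to 183890 and 80462 to 329440. Leukocyte genes (8) summed to 114 to 245 CP20M in the sorted cells and 312 to 771 in the crypts, and genes of stroma and muscle (9) to 503 to 579 in the Epcam+ve cells, 1050 to 1915 in the pools and 564 to 2705 in the crypts. Genes of the urothelium (5) and mesothelium (4), other places of *Krt7*, summed to 36 to 124 and 0 to 18 CP20M in the Epcam+ve cells, 67 to 82 and 14 to 105 in HE pools and 181 to 433 and 46 to 447 in the crypts. Genes of prostate and seminal vesicle (6) were at 0 in the Epcam+ve cells and KO pools and at most 12 CP20M in HE pools. In the crypts they summed to 3 to 106 CP20M in WT, 0 to 55 in KO, 0 to 3 in eControl and 0 in eKO mice. Genes of enteric neurons and glia (7) summed to 94 to 117 in the Epcam+ve cells and 1336 to 1579 in HE pools, and 2 of the 7 were tested there. Neural markers in the GFP+ve cells are tied by the paper to their neuroendocrine identity. This list therefore need not stand for neurons or glia. The part of other cells in the keratin values was not tested.

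Whether loss of *Olfr78* moved keratins in crypts was addressed in both lines. With the line as a covariate, 0 of 11 keratins tested were called in the 12 crypt libraries (FDR of at most 0.2 and a change beyond 1.5-fold, limma), where 4 of 16447 genes (0.0243%) were; 0 keratins had an unadjusted p under 0.05, and edgeR and DESeq2 also called 0. Without eKO mouse 1 the count over all genes was 1008 higher and 126 lower, with 0 keratins among them. In KO against WT crypts 0 of 8 keratins were called, with 0 at an unadjusted p under 0.05 by limma. Of all 15975 genes 9.48% were called, and with 8 keratins a count of 0 does not part them from that share. EdgeR, DESeq2 and limma after median-of-ratios rescaling each called 0 of the 8, with 2 at an unadjusted p under 0.05. In eKO against eControl crypts 0 of 9 keratins (0 at an unadjusted p under 0.05) and 0 of 15401 genes (0%) were called, with 127 genes at an unadjusted p under 0.05. Whether the genotype acted differently in the 2 lines was tested by an interaction term, which called 0 of 11 keratins (0 at an unadjusted p under 0.05) and 0.0304% of all genes. With eKO mouse 2 left out it called *Krt23* and *Krt222*, among 4296 genes. *Krt87* had the largest log2FC of the 11 over both lines, 0.47 (SE 0.23, FDR = 0.64). Its values were 62 and 39 CP20M for WT mice, 83, 72, 55, 40 and 50 for KO mice, 45, 36 and 55 in eControl crypts and 115 and 62 in eKO crypts. The groups overlapped in the first line and not in the second, and the share of all genes so parted was not counted.

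*Krt8* ranged from 24441 to 52004 CP20M over the crypt libraries. It had 32706 and 34301 CP20M for WT mice, 26110, 29188, 24441, 32372 and 30913 for KO mice, 52004, 40731 and 46144 in eControl crypts and 50232 and 47339 in eKO crypts. *Krt19* had 22651 and 23923, then 18875, 21198, 17724, 21804 and 20221, then 29992, 26309 and 28662, and then 31417 and 30992 CP20M in the same order. For both genes KO crypts lay below WT crypts and, on average, eKO crypts above eControl crypts, with log2FC values over both lines of -0.09 and -0.06 (SE 0.12 and 0.10). How many of all genes lay so was not counted. *Krt20* had 9052 and 8833, then 7539, 9192, 7878, 9680 and 10980, then 10260, 9522 and 10290, and then 8749 and 12060 CP20M, and its groups overlapped in both lines (0.02, SE 0.11). *Krt7* had 2256 and 1972, then 2262, 2057, 2257, 2019 and 1535, then 2720, 1880 and 2454, and then 3263 and 2447 CP20M (0.09, SE 0.13). *Krt18* lay between 4751 and 8877 CP20M and *Krt23* between 52 and 315 in the crypts, with log2FC values of -0.02 and -0.10 (SE 0.11 and 0.29). The levels of the lines come from separately made tables, and are set side by side without a test.

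Squamous keratins were low in the crypts. *Krt14*, *Krt10* and *Krt12* were tested over both lines, with log2FC values of -0.02, 0.20 and -0.22 (SE 0.28, 0.22 and 0.29), and *Krt222* with 0.01 (0.29). *Krt5* had 0 to 11 CP20M in 11 crypt libraries and 134, from 68 reads, in eControl mouse 2. That mouse was above every other crypt library in 10 of the 21 squamous keratins, where the next highest count was 4, in KO mouse 1. The share of all genes in which that mouse was highest was not counted. The values were 192 CP20M for *Krt13* (0 to 26 in the other crypts), 87 for *Krt15* (3 to 23), 49 for *Krt6a* (0 to 10) and 47 for *Krt14* (10 to 43). *Trp63* had 10 CP20M there, from 5 reads, and *Chga* 1755, the lowest of the eControl crypts. Summed over the 21 squamous keratins, eControl mouse 2 had 793 CP20M, eKO mouse 2, which shares its genotype label, 242, and the other 2 eControl mice 181 and 277. Without eControl mouse 2 and without eKO mouse 2, in turn, 0 keratins were called over both lines and in eKO against eControl crypts.

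Genes whose products tie filaments to the membrane or to other filaments were also looked at in KO against WT crypts. In that comparison 1270 of the 15975 genes tested were called higher. Of 9 genes of hemidesmosomes and plakins tested, 3 were called higher, *Dst* (9526 and 9050 CP20M in WT, 13321 to 16693 in KO crypts, log2FC 0.73, SE 0.10, FDR = 0.0046), *Macf1* (6301 and 5242 against 7779 to 9710, 0.60, SE 0.11, FDR = 0.010) and *Col17a1* (32 and 23 against 26 to 81, 0.89, SE 0.34, FDR = 0.13). In eKO against eControl crypts 0 of the 9 were called, with *Dst* at 7045 and 13152 CP20M in eKO and 7009, 13108 and 12919 in eControl crypts. Of the squamous genes outside the keratins, *Anxa8* was called higher in KO crypts (160 and 157 against 205 to 523 CP20M, 0.90, SE 0.28, FDR = 0.070), 1 of 4 tested.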

How the data were processed

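RNA of 18 libraries was grouped by the titles of the archive. Per the methods, the authors aligned read pairs with STAR (GRCm38) and used HTSeq for counting on Ensembl release 90 genes. The authors deposited a signal per gene for the sorted cells and a score per gene for the crypts, both made by scaling each library to 20000000 reads and rounding up (CP20M), with a separate table for each line. Whole reads were recovered for 99.84% to 99.99% of the values of a library, 532704 to 2237486 reads on genes in the sorted cells and 6175306 to 10995342 in the crypts. No columns of the authors' own comparisons were in the tables.

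Genes with at least 40 CP20M (2 CPM) in at least 2 of the libraries compared were tested with limma 3.58.1 and a trend of the spread on log2(CP20M + 10), which understates the change of low genes, with Benjamini-Hochberg adjustment over all genes. KO and HE pools needed more than 40 CP20M in all 4 pools. The criterion of the methods was used beside the test there. FDR here is the adjusted p-value. Calls needed FDR under 0.001 with a log2 fold change beyond 2 where Epcam+ve cells were compared, FDR under 0.05 for KO against HE pools, and FDR of at most 0.2 with a 1.5-fold change for crypts. The methods used edgeR; the values are scaled, so the quasi-likelihood test of edgeR 4.0.16 and DESeq2 1.42.0 on the recovered reads were alternatives, beside pseudocounts of 1 and 40, median-of-ratios rescaling, other filters, no trend, a block for the library number, no covariate for the line and each library left out; a block with crossed pool numbers and, over both lines, a block within each line were added after seeing the data. For KO against WT crypts edgeR called 1641 genes against 1514 by limma. The fits were tested on simulated reads. Coordinates and transcript lengths came from GENCODE vM21 (GRCm38), which differs in release from the authors' annotation and held all 54 keratins, and promoter sequences from RefSeq (GRCm38.p6). Intervals and floors (3 reads) cover counting error only.

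The keratins, the classes and the other gene lists were chosen with earlier results of these data known. Named are all simple keratins, any other keratin with 40 CP20M in 2 libraries of a table, *Krt5* and *Krt14*. Named too are, of each other list, at most the 3 members with the smallest p past the thresholds in a comparison. *Trp63*, *Epcam*, *Cdh1*, *Chga* and *Olfr78* are named in any case. *Krt4*, *Krt80*, *Krt81*, *Krt86* and *Krt88* were named for their class or place. *Flg*, *Ivl*, *Lor*, *Sfn*, *Serpinb5*, *Lgals7*, *Lypd3*, *Krtdap*, *Ly6d*, *Dmkn* and *Sbsn* were named beside the squamous keratins, after their values were seen. The library numbers come from titles and name different animals. Same-numbered libraries correlated at 0.03 for HE pools and Epcam+ve cells, -0.244 for KO and HE pools and 0.589 and 0.363 for eKO and eControl crypts, in at most 2 pairs.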

Additional observations from a re-analysis of the deposited data

Results flagged for a closer look

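*Krt12* in KO crypts had 25, 33, 34, 37 and 87 CP20M, and the gap of the highest library to the next took 0.806 of the whole range, above the 95% critical value for 5 samples; about 1 in 20 groups would be picked out so by chance, and 21 keratins were looked at. In 4 keratins every KO crypt library lay to the same side of the WT mean. In the same 4 keratins every eKO library lay to the opposite side of the eControl mean. The share of all genes with this pattern was not counted, so how many keratins would meet it by chance is not known. For *Krt8* the KO to WT ratio of means was 0.854 and the eKO to eControl ratio 1.05, 1.23 times as high, and for *Krt19* 0.857 and 1.10, 1.29 times as high; the test of the difference between the lines gave adjusted p = 0.64 and 0.56 from limma. For *Krt14* the ratios were 1.48 and 0.583, 0.393 times, with adjusted p = 0.56 from limma, from means of 18.5 and 34.3 CP20M in the control groups. For *Krt17* they were 1.42 and 0.467, 0.328 times, from means of 4.5 and 15 CP20M, and this difference was not tested, since the gene did not pass the filter.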

How the results depend on the processing

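In HE pools against Epcam+ve cells 4 keratins were called, and 0 with a pseudocount of 1 or without a trend of the spread, 5 with a replicate block and 3 to 7 with 1 library left out; *Krt20*, *Krt7* and *Krt87* were called higher in each of the alternatives other than those 2. *Krt8* had log2 fold changes of -0.00471 to 0.159 there, the first without Epcam+ve sample 2. In KO pools against Epcam+ve cells 0 were called, 1 by DESeq2, 2 with a replicate block (*Krt14* and *Krt5*) and 0 to 6 with 1 library left out. In KO against HE pools 0 were called, 0 with a replicate block, 2 with crossed pool numbers, and 0 to 3 with 1 library left out, and the criterion of the methods was met by 3 keratins, with a block too, by 4 with a filter of 40 CP20M in 2 pools (*Krt23* higher, the others lower) and by 3 to 5 with 1 library left out. In Epcam+ve cells against WT crypts 2 were called, 4 by edgeR, DESeq2 or with a replicate block, 0 with a pseudocount of 1, without a filter or without a trend, and 0 to 4 with 1 library left out. In KO against WT crypts 0 were called and 1 (*Krt23*) with a replicate block; in eKO against eControl crypts 0 with and without it. The difference between the lines called 0, and 0 to 2 with 1 library left out (2, *Krt23* and *Krt222*, without eKO mouse 2). A replicate block within each line, added after seeing the data and fitted over the 8 crypt libraries whose number both genotypes have, called 0 keratins over both lines and 0 for the difference between the lines. Where a library left out leaves 1 in a group, that library is assumed to vary like the others. The cause of these changes was not tested, except that a gene near 0 in the other group loses the filter when an Epcam+ve sample is left out. Over all genes, HE pools against Epcam+ve cells gave 287 calls and 0 to 746 under the alternatives with all libraries, Epcam+ve cells against WT crypts 116 and 0 to 420, KO pools against Epcam+ve cells 0 and 0 to 239, KO against HE pools 0 and 0 to 85, and by the criterion 1571 and 1288 to 2468, crypts of both lines 4 and 0 to 26, KO against WT crypts 1514 and 854 to 1644, eKO against eControl crypts 0 and 0 to 13, and the difference between the lines 5 and 3 to 66. With 1 library left out, these counts over all genes were, in the same order, 317 to 1195, 19 to 191, 153 to 1753, 0 to 373, 1853 to 3390, 0 to 1134, 546 to 1684, 1 to 6 and 2 to 4296. The squamous share in the Epcam+ve cells was 4.34% on average and 3.31% when *Krt5*, *Krt13*, *Krt14*, *Krt15* and *Krt17* alone were set against *Krt8*, *Krt18*, *Krt19* and *Krt20*. KO pool 1, at 37.5 CP20M a read, limits what can be said of keratins under about 113 CP20M there.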
